A study of Homo sapiens with 16 samples.

Results

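Accessible chromatin was compared between stiff and soft gel in MDA-MB-231 cells that had been under selection on gel and in their ancestral population, to ask where the response to stiffness differs between the populations. The response of a genomic region is the log2 ratio of its signal on stiff gel over its signal on soft gel. The change of response is the response in ancestral cells minus the response in selected cells, so a positive change means a higher stiff/soft ratio in ancestral cells and a negative change a higher stiff/soft ratio in selected cells. The peak lists of the 4 groups were merged on chromosomes 1 to 22 wherever peaks overlapped by 1 bp, and 70318 of the 161185 merged regions (43.6%) had a peak in all 4 lists. Signal is the pileup, the number of fragments stacked at a peak's summit. The highest pileup of each list in a region was divided by that list's median over these 70318 regions.

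MDA-MB-231 is an established cell line that came from a breast adenocarcinoma and has a mesenchymal-like form. The 16 libraries fell into 4 groups of 4: selected cells on stiff gel (308 kPa), selected cells on soft gel (1 kPa), ancestral cells on stiff gel (308 kPa) and ancestral cells on soft gel (1 kPa). All gels were polyacrylamide with bound type I collagen, and selection lasted 75 days with 20000 cells replated about weekly. The labels do not settle whether the selected cells on stiff gel had been selected on soft gel and then moved, or had been kept on stiff gel throughout, so the selected response may join a change of gel with a different selection. In ATAC-seq a transposase cuts exposed DNA, so a higher pileup stands for DNA that is open in more of the cells or more often; both cannot be told apart in bulk libraries.

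Each group is given as 1 peak list. There is therefore no spread between replicates and no test, and the 95% intervals given with log2 values cover the counting error of the pileups only. The median pileup over the regions was 107 in selected cells on stiff gel, 93 in selected cells on soft gel, 280 in ancestral cells on stiff gel and 202 in ancestral cells on soft gel, so values of selected cells rest on fewer fragments. The median fold enrichment, a ratio over background, was 7.93 and 6.49 in selected cells on stiff and soft gel. In ancestral cells it was 13.2 and 11.7 on the same gels. Peaks thus also stood less high above background in selected cells, least on soft gel, and scaling to the median does not remove this. Each list skips 1.00% of its peak numbers, and every stretch that holds a skipped number is longer than the widest listed peak. The 1982 regions that touch such a stretch in any list are called undetermined. Of the markers of the line, 7 of 10 had a peak at a gene end in all 4 lists, with a median fold enrichment of 67.2, and FOSL1 had none in any list. Of 12 markers of luminal, blood and endothelial cells, 6 had one in all 4 lists, with a median of 12.4, and ESR1, PTPRC and PECAM1 had none. CD3E, a T cell receptor subunit gene, had fold enrichments of 51.7 and 35.4 in selected cells on stiff and soft gel and 74.7 and 79.4 in ancestral cells on stiff and soft gel; the part of other cells in the results was not tested.

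As background, cells sense the stiffness of their matrix through integrins and focal adhesions, which pass tension to the actin cytoskeleton and the nucleus. YAP and TAZ with their TEAD partners, the MRTF coactivators with SRF, and AP-1 are transcription factors known to respond to such tension. Promoters in CpG islands, stretches rich in GC and in CG dinucleotides, are open in most cell types, while distal elements vary more between cell states.

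The regions at both ends of the change that lay at a promoter were mostly rich in GC, and the sequences of 4 per direction are shown because of this base composition. Each is the 250 bases before the start of the gene in RefSeq, build GRCh38.p14, written from 5′ to 3′ on the gene's strand, with every CG dinucleotide in capitals. The first 4 are the promoters with the highest change by the lower bound of its interval, outside undetermined regions, and so with a higher stiff/soft ratio in ancestral cells. The GC content was 70.8% for FOXF2, 84.4% for CMIP, 73.2% for MMP11 and 60% for KLHL35, with 20, 44, 22 and 5 CG dinucleotides, against medians of 65.6% and 21 over the promoters of all 9387 promoter regions outside undetermined ones.
FOXF2, chr6:1389326-1389575 (+ strand): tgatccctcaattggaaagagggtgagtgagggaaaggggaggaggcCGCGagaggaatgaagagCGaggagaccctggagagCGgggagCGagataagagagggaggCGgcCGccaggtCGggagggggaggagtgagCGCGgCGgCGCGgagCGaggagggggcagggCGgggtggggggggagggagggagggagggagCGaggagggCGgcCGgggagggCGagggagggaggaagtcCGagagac
CMIP, chr16:81444558-81444807 (+ strand): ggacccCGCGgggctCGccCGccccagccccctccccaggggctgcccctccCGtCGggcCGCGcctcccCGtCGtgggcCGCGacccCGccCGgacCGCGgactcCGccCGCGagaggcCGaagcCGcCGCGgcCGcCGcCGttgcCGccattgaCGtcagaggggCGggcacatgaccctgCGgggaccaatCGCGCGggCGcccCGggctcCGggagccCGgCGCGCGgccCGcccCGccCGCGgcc
MMP11, chr22:23772599-23772848 (+ strand): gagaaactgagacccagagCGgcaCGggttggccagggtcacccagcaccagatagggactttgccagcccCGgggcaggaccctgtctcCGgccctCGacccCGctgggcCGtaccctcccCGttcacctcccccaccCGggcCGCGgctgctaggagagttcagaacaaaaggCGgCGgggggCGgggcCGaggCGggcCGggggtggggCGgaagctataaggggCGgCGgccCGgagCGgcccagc
KLHL35, chr11:75433204-75433453 (- strand): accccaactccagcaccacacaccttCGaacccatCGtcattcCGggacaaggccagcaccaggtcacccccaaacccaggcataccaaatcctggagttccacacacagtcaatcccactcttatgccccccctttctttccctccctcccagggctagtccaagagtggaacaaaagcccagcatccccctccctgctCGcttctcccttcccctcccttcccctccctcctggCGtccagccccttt

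The next 4 promoters are those with the lowest change by the upper bound of its interval, with a higher stiff/soft ratio in selected cells. The GC content was 82.4% for LOC102724428, 80.4% for ZMIZ2, 78% for HIC2 and 79.2% for EP400, with 45, 28, 29 and 44 CG dinucleotides. The 250 bases of LOC102724428, on the short arm of chromosome 21, were identical at all 250 positions to those of SIK1, a salt-inducible kinase gene on the long arm. Fragments of the copies cannot be told apart, and the values of this region are uncertain.
LOC102724428, chr21:6110881-6111130 (+ strand): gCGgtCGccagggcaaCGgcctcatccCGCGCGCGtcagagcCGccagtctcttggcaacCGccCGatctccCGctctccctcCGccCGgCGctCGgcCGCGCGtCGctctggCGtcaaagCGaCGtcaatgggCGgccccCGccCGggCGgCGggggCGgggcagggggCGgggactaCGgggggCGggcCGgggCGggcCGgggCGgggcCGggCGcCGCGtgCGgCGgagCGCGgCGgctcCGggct
ZMIZ2, chr7:44748321-44748570 (+ strand): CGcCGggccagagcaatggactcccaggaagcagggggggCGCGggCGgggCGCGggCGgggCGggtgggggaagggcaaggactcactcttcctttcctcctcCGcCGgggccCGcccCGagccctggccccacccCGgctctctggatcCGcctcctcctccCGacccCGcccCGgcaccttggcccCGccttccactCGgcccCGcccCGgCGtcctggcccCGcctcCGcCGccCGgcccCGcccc
HIC2, chr22:21417121-21417370 (+ strand): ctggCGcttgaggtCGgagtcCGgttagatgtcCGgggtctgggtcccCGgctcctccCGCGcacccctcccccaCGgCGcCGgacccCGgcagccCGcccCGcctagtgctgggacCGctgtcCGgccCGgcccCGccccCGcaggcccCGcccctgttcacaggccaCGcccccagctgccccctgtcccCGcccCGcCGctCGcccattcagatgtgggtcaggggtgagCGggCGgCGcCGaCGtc
EP400, chr12:131949692-131949941 (+ strand): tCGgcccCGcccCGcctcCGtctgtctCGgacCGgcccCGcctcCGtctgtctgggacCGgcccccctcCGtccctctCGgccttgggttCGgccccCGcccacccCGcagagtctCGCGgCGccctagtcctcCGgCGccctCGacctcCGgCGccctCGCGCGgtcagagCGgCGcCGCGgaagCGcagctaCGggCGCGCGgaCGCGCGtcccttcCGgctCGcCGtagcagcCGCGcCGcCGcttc

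Most regions that responded in both populations did so in the same direction. In 7258 of the 8323 regions in which the interval of each response lay off 0, the direction was shared (87.2%, exact Clopper-Pearson interval 86.5% to 87.9%), and it was opposite in 1065. Over all 70318 regions, which include many with a response near 0, 63.9% had a shared direction (63.5% to 64.2%). Of these regions, 20150 were higher on stiff gel and 24772 higher on soft gel in both populations. Outside undetermined regions, the shared direction held in 68.8% of the lowest decile by mean scaled pileup and 57.6% of the highest. In the lowest decile the median response was -0.28 in selected cells and -0.17 in ancestral cells. The part of this level trend in the shared direction was not tested. Across regions the responses had a Pearson r of 0.42 and a Spearman correlation of 0.41. Regions share libraries and neighbourhood, so these are descriptions.

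The responses were small, and the estimated counting error was a large part of their scatter. The SD of the response was 0.34 in selected cells and 0.31 in ancestral cells, and counting error alone would give 0.22 in selected cells and 0.17 in ancestral cells. The SD of the change was 0.35, against 0.27 from counting error. In 86.5% of regions the change lay within 0.5 of 0 on the log2 scale. With the counting variance taken off, r came to 0.65, and to 0.70 without undetermined regions. Outside undetermined regions, the SD of the change was 0.36 in the lowest decile by mean scaled pileup, below the 0.43 from counting error. In the highest decile it was 0.20, against 0.09 from counting error. Counting error is thus set too wide in weak regions, and the corrected r may be too high. The interval of the change lay above 0 in 4521 regions (6.43%) and below 0 in 8145 (11.6%).

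**Figure D1:**
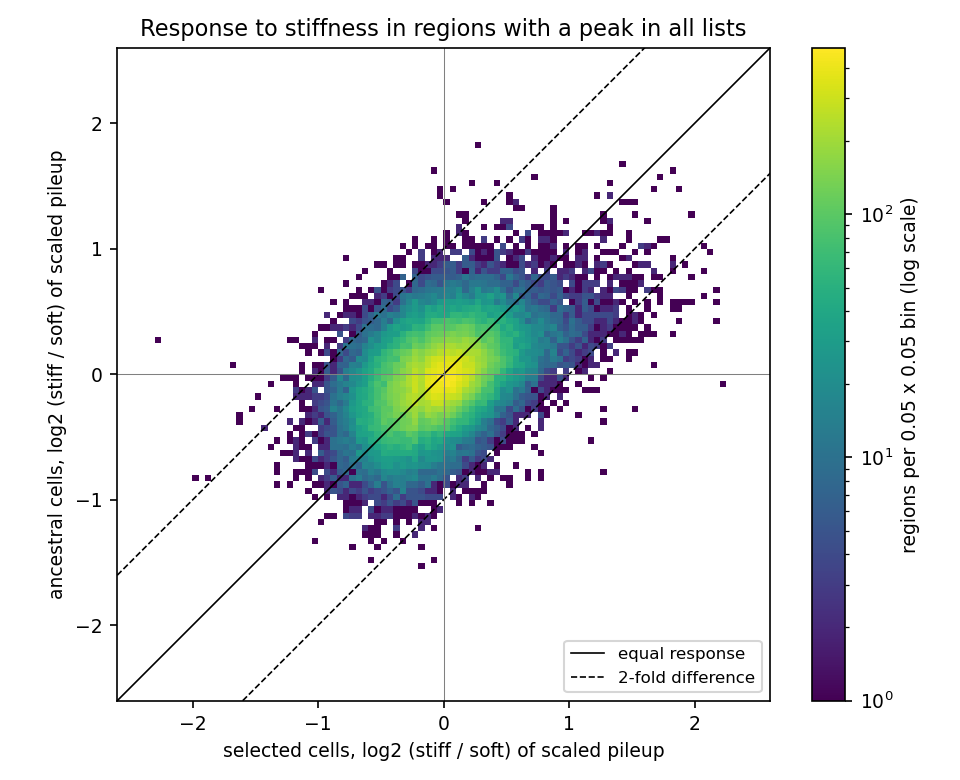
Response of regions outside undetermined ones: log2 stiff over soft of the scaled pileup in selected cells (horizontal) and in ancestral cells (vertical), with the number of regions per bin in colour on a log scale. The cloud lies along the line of equal response with an r of 0.44, and the part beyond the lower dashed line has responses up to 2.24 in selected cells.

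With median scaling, more regions were past 2-fold toward stiff gel in selected cells than in ancestral cells, while counts toward soft gel were alike. Outside undetermined regions, 500 (0.732%) were at least 2-fold higher and 128 (0.187%) at least 2-fold lower on stiff gel in selected cells. In ancestral cells the counts were 138 (0.202%) and 125 (0.183%). Other scalings were not tried for these counts. The median response in selected cells was -0.28 in the lowest decile by mean scaled pileup and 0.09 in the highest. In ancestral cells it was -0.17 and -0.02.

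Changes of 2-fold or more, a change of at least 1 or at most -1, were rare. Over all regions, 323 (0.459%) had a change of at least 1 and 245 (0.348%) a change of at most -1. Which side held more depended on the processing: the counts were 256 and 478 with quantile scaling, 135 and 158 among regions with −log10 q of at least 10 in each list, and 41 and 118 among regions at or above the median level. Outside undetermined regions, 275 of 68336 regions (0.402%) had a change of at least 1 and 194 (0.284%) a change of at most -1. In the 275 regions the median response was -0.62 in selected cells and 0.51 in ancestral cells, and the response had opposite signs in 239. In the 194 regions the median response was 0.95 in selected cells and -0.26 in ancestral cells, with opposite signs in 95. A cut on the change favours responses of opposite sign, so these medians and signs follow in part from the cut. Selected cells on soft gel were the group farthest from the other 3 in 117 of the 275 regions (42.5%) and in 114 of the 194 (58.8%), against 34.9% of all regions outside undetermined ones, where they were also the most frequent of the 4.

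The regions with a change of at least 1 were weakly marked, with a median pileup of 43 in selected cells on stiff gel, 60 in selected cells on soft gel, 133 in ancestral cells on stiff gel and 70 in ancestral cells on soft gel. Those with a change of at most -1 had medians of 136 in selected cells on stiff gel, 68 in selected cells on soft gel, 338.5 in ancestral cells on stiff gel and 292.5 in ancestral cells on soft gel. The change also went with the level over regions outside undetermined ones. Its median was 0.11 in the lowest decile of regions by mean scaled pileup and -0.12 in the highest decile. In the highest decile the median response was 0.09 in selected cells and -0.02 in ancestral cells.

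At the promoters with the highest change, ancestral cells gained signal on stiff gel and selected cells did not do so beyond counting error. All 8 of them were named by the lower bound of the interval. In each, the scaled pileup of the 4 groups was highest in ancestral cells on stiff gel and lowest in ancestral cells on soft gel. The interval of the selected response held 0 in all 8. Ranking by the change favours such values, so they describe the promoters picked. FOXF2, a forkhead factor gene of mesenchymal development and a YAP/TAZ target, had a pileup of 87 in selected cells on stiff gel, 78 in selected cells on soft gel, 279 in ancestral cells on stiff gel and 75 in ancestral cells on soft gel. The stiff/soft ratio of its region (chromosome 6, 1387395 to 1394723) was 0.969 in selected cells and 2.68 in ancestral cells after scaling, a change of 1.47 (0.89 to 2.04).

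MMP11 encodes stromelysin-3, a matrix metalloproteinase known from breast carcinoma stroma. Its promoter region (chromosome 22, 23772568 to 23773946) had pileups of 52 and 38 in selected cells on stiff and soft gel, and of 211 and 43 in ancestral cells on stiff and soft gel. Its stiff/soft ratio was 1.19 in selected cells and 3.54 in ancestral cells, the highest ancestral ratio among the 8 promoters, with a change of 1.57 (0.81 to 2.34). CMIP, an adaptor protein gene, had pileups of 91 and 78 in selected cells on stiff and soft gel, and of 417 and 116 in ancestral cells on stiff and soft gel. Its change was 1.35 (0.83 to 1.88).

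The other 5 promoters were picked by the same rule. KLHL35, of the kelch-like family, had pileups of 64 and 52 in selected cells on stiff and soft gel and of 375 and 98 in ancestral cells on stiff and soft gel, a change of 1.37 (0.75 to 1.99). DISP2, of the family that releases Hedgehog ligands, had 85 and 64 in selected cells and 380 and 96 in ancestral cells on the same gels, a change of 1.31 (0.74 to 1.88). ADGRB3, an adhesion G-protein-coupled receptor gene, GPR157, another G-protein-coupled receptor gene, and THRA, the thyroid hormone receptor alpha gene, had changes of 1.12, 0.97 and 1.06. The response of the 8 promoters ran between -0.04 and 0.25 in selected cells and between 1.13 and 1.82 in ancestral cells. With pileups summed over the peaks of a region the change was 0.40 at CMIP, 0.63 at THRA and 2.08 at KLHL35, and with quantile scaling it was 0.82 at MMP11.

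Among the 12 regions of any place named by the lower bound of the interval, 9 lay away from promoters. Selected cells on soft gel had the highest scaled pileup of the 4 groups in all 9, and ancestral cells on soft gel the lowest in 7. The first was a region 24683 bp outside GALNT18, a gene of mucin-type O-glycosylation (chromosome 11, 11245756 to 11247169). Its pileup was 36 in selected cells on stiff gel, 149 in selected cells on soft gel, 56 in ancestral cells on stiff gel and 33 in ancestral cells on soft gel. The change of 2.54 (1.73 to 3.36) was the highest outside undetermined regions.

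Another region lay inside KCNIP3, a calcium-binding regulator of potassium channels, and another inside JARID2, a partner of the Polycomb repressive complex. Both had their highest scaled pileup in selected cells on soft gel. KCNIP3 had its lowest in ancestral cells on soft gel, and JARID2 in selected cells on stiff gel. JARID2 was lower on stiff gel in both populations, with a response of -1.65 in selected cells and -0.31 (-0.52 to -0.09) in ancestral cells. KCNIP3 had pileups of 91 and 253 in selected cells on stiff and soft gel, and of 136 and 93 in ancestral cells on stiff and soft gel. JARID2 had 130 and 354 in selected cells and 370 and 330 in ancestral cells on the same gels, with changes of 1.75 for KCNIP3 and 1.34 for JARID2. A region 499 bp outside PTPRN2, of the receptor tyrosine phosphatase family, had pileups of 101 and 94 in selected cells on stiff and soft gel, and of 216 and 50 in ancestral cells on stiff and soft gel. Scaled, these were 0.94 and 1.01 in selected cells and 0.77 and 0.25 in ancestral cells on the same gels, a change of 1.74. The remaining regions lay inside GRID2IP, TMEM266, EFL1 and MTCL2 and near MDH2, with changes between 1.10 and 1.71. With pileups summed over the peaks of a region, the change at MTCL2 was -0.21 and that at GRID2IP 1.03.

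**Figure D2:**
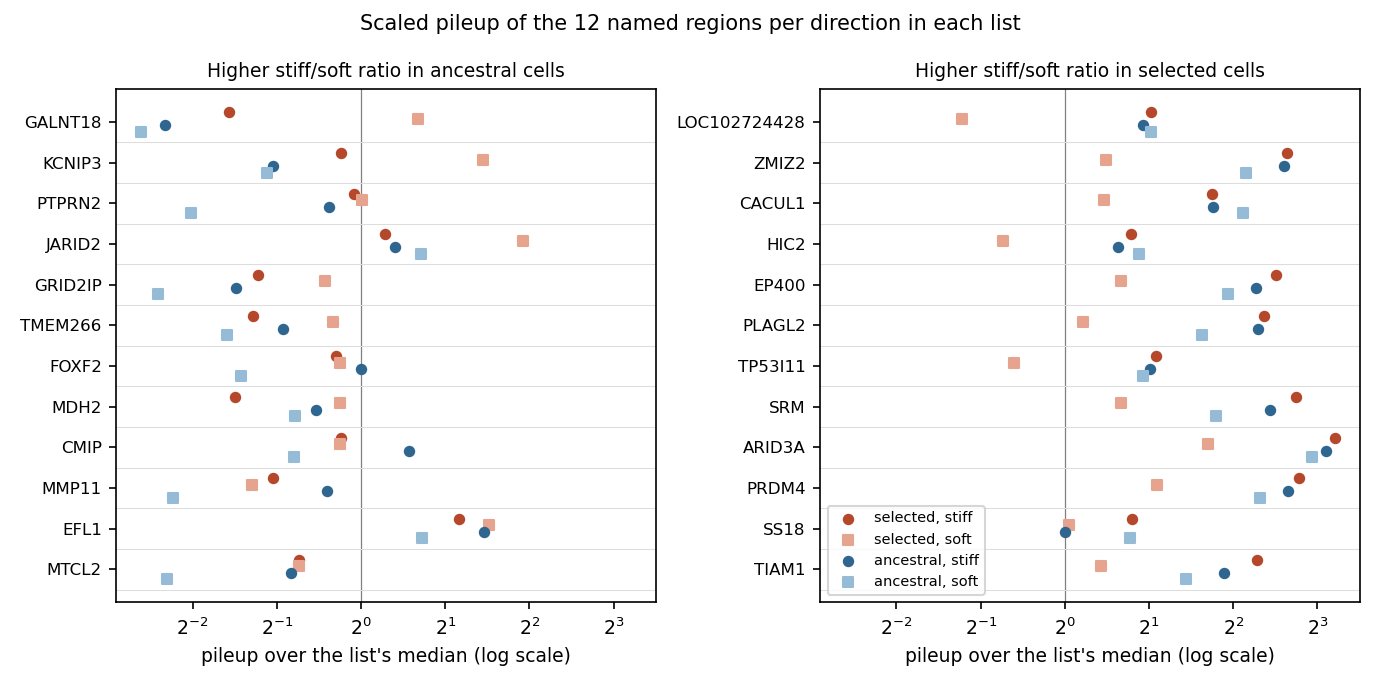
Scaled pileup (log scale, 1 is the list's median) of the 12 named regions per direction in selected cells on stiff and soft gel and in ancestral cells on stiff and soft gel. Among the regions with a higher ratio in selected cells, selected cells on soft gel are the lowest group in 11 of 12; among those with a higher ratio in ancestral cells, ancestral cells on soft gel are the lowest in 10 of 12.

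At the promoters with the lowest change, signal was low in selected cells on soft gel. All 8 promoters named by the upper bound of the interval had their lowest scaled pileup there. The response ran between 1.52 and 2.24 in selected cells and between -0.26 and 0.66 in ancestral cells. Ranking by the change favours a low value in selected cells on soft gel. ZMIZ2, a coactivator gene related to the PIAS proteins, had a pileup of 668 in selected cells on stiff gel, 130 in selected cells on soft gel, 1698 in ancestral cells on stiff gel and 899 in ancestral cells on soft gel. The stiff/soft ratio of its region (chromosome 7, 44747697 to 44751645) was 4.47 in selected cells and 1.36 in ancestral cells, a change of -1.71 (-2.01 to -1.42).

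EP400 encodes an ATPase of the TIP60 chromatin remodelling complex. Its promoter region (chromosome 12, 131949335 to 131951438) had pileups of 608 and 148 in selected cells on stiff and soft gel, and of 1355 and 773 in ancestral cells on stiff and soft gel, a change of -1.50 (-1.79 to -1.21). HIC2, a transcriptional repressor gene, had 185 and 56 in selected cells and 433 and 373 in ancestral cells on the same gels, a change of -1.78 (-2.25 to -1.30). Both were higher on stiff gel in selected cells, by 3.57-fold at EP400 and 2.87-fold at HIC2.

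SRM, the spermidine synthase gene, PLAGL2, a zinc finger factor gene, TP53I11, a p53-inducible gene, and PRDM4, of the PR domain family, complete the list. SRM had pileups of 715 and 148 in selected cells on stiff and soft gel, and of 1520 and 703 in ancestral cells on stiff and soft gel. PLAGL2 had 552 and 108 in selected cells and 1371 and 627 in ancestral cells on the same gels. Their changes were -1.43 at SRM, -1.49 at PLAGL2, -1.60 at TP53I11 and -1.36 at PRDM4. LOC102724428 had 217 and 40 in selected cells on stiff and soft gel and 531 and 410 in ancestral cells on stiff and soft gel, a change of -2.34 (-2.86 to -1.81) that is uncertain for the reason given with its sequence. With summed pileups the change was -1.04 at ZMIZ2 and -0.67 at TP53I11.

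Among all 12 regions named in this direction, 9 overlapped a promoter, the ninth that of TIAM1, an exchange factor for the GTPase Rac, with a change of -1.41. The other 3 lay inside ARID3A, a DNA-binding protein gene, near CACUL1, a cullin family gene, and near SS18, which encodes a subunit of the BAF remodelling complex. Around the 24 named regions of both directions, the median change of the other regions within 5 Mb ran between -0.18 at TIAM1 and 0.14 at EFL1.

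Promoters as a whole lay on the negative side. The 9387 regions with a promoter had a median response of 0.11 in selected cells and 0.05 in ancestral cells, and a median change of -0.09, against 0.03 inside genes without a promoter. Promoters made up 5.82% of the regions with a change of at least 1 and 27.3% of those with a change of at most -1, against 13.7% of all. Their level was also higher, with a median mean scaled pileup of 3.78 against 1.01 over all regions. Within the highest quintile by level the median change was -0.12 at promoters and -0.09 elsewhere, and within the lowest quintile it was 0.17 at promoters and 0.12 elsewhere. With quantile scaling in place of the medians, which takes level trends out, the promoters' median change was -0.014.

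Base composition went with the response of promoters in both populations, and over all promoter regions more steeply in selected cells. In the quintile of promoter regions with the lowest GC content (median 52%) the median response was 0.0027 in selected cells and 0.028 in ancestral cells. In the quintile with the highest (median 77.6%) it was 0.38 in selected cells and 0.20 in ancestral cells. The median change was 0.017 in the lowest quintile and -0.21 in the highest. The Spearman correlation of GC content with the response was 0.46 in selected cells and 0.25 in ancestral cells over the 9387 promoter regions, and -0.29 with the change. Within level quintiles, the Spearman correlation with the change ran between 0.04 in the second lowest and -0.43 in the highest. The correlation with the response was alike in both populations in the lower level quintiles. In the second lowest it was 0.31 in selected cells and 0.35 in ancestral cells, and in the middle 0.41 and 0.40. It was higher in selected cells in the second highest, 0.48 against 0.36, and in the highest, 0.50 against 0.17. The quintile with the highest GC content, 1779 of the 9387 promoter regions, held most promoters of both ends of the change. It held 10 of the 16 promoter regions with a change of at least 1. Of the 53 with a change of at most -1 it held 34. The part of GC content in the named promoters was not tested.

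**Figure D3:**
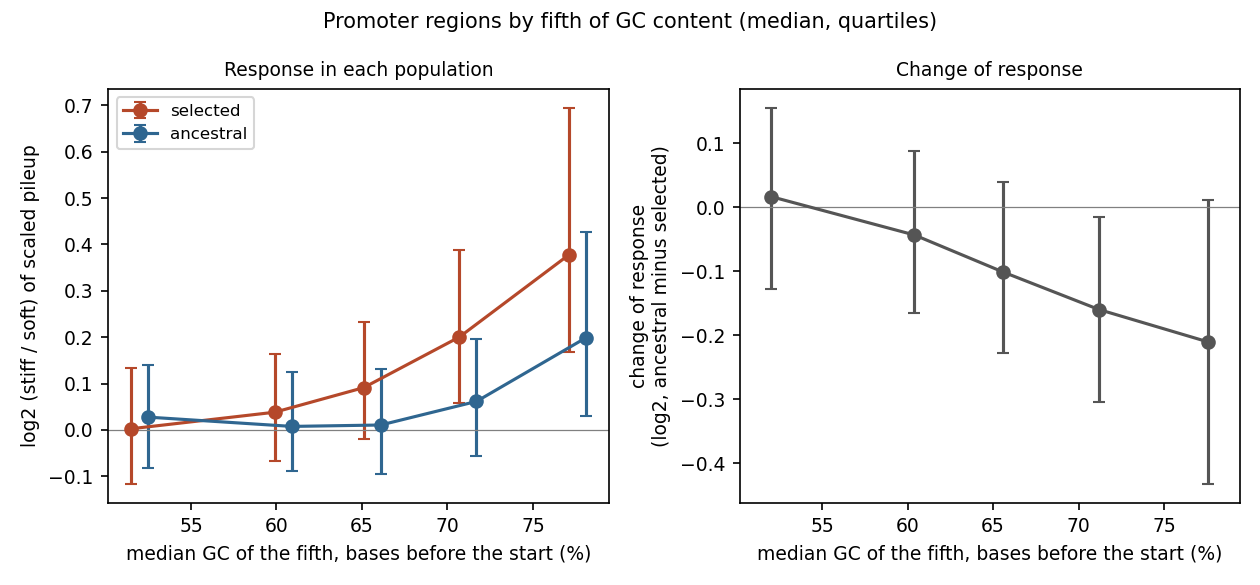
Promoter regions in quintiles by GC content of the 250 bases before the start: median and quartiles of the log2 stiff/soft response in selected and ancestral cells (left) and of the change (right, log2). The median in the quintile richest in GC is 0.38 in selected cells and 0.20 in ancestral cells, and the median change there is -0.21.

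Short sequence motifs were counted on both strands of the 250 bases as a description of the letters, with promoter regions split in quintiles by their change. The SP/KLF letters GGGCGG were found in 80.4% of the quintile with the lowest change and 57.5% of the quintile with the highest, against 69.2% of all promoter regions and 54.0% of all 21040 promoters of protein-coding genes. The AP-1 letters TGANTCA were found in 2.88% of the lowest quintile and 6.18% of the highest, against 4.42% of promoter regions and 5.31% of all promoters. The TEAD letters GGAATG were found in 8.15% of the lowest quintile and 10.4% of the highest (9.09% of promoter regions, 10.4% of all promoters), and the CRE letters TGACGTCA in 3.46% and 2.24% (2.96% of promoter regions, 2.04% of all). The ETS letters CCGGAAG were found in 11.7% and 13.8% (15.1% of promoter regions, 10.7% of all), and the letters CCAAT in 29.8% and 27.7% (34.1% of promoter regions, 32.4% of all). The NRF1 motif was found in 1.86% and 1.44% (2.01% of promoter regions, 1.26% of all), and the CArG box, known as the SRF site, in 0.692% of either end (0.937% of promoter regions, 1.18% of all). For ETS, CCAAT, NRF1 and CArG both ends lay below the share of promoter regions. A CArG box can hold the letters CCAAT, and none of the other motifs contains another. Promoters with GGGCGG had a median GC content of 68.8%, against 58% without, so letters and base composition cannot be told apart here.

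Other regions responded in the same direction in both populations, and some of these still differed in size. A region near YPEL1 (chromosome 22, 21735060 to 21736601) had pileups of 397 and 103 in selected cells on stiff and soft gel, and of 1585 and 380 in ancestral cells on stiff and soft gel. Its stiff/soft ratio was 3.35 in selected cells and 3.01 in ancestral cells, with a change of -0.15 (-0.51 to 0.20). The promoters of FAM169A, of PDXK, which makes the active form of vitamin B6, and of DUSP16, a phosphatase of MAP kinases, were next, with ratios between 3.18 and 3.63 in selected cells and between 2.75 and 3.13 in ancestral cells. Their changes were -0.20, -0.38 and -0.21, and the interval lay off 0 at PDXK. Their GC content was 82.4%, 72.4% and 74.8%, so promoters rich in GC also stood among the shared responses. With quantile scaling the change at FAM169A was -0.72, and with summed pileups that at PDXK was -0.02.

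In the other direction, a region inside CLIC5, a chloride intracellular channel gene, was lower on stiff gel in both populations. Its pileup was 37 and 126 in selected cells on stiff and soft gel, and 225 and 291 in ancestral cells on stiff and soft gel. Its response was -1.97 in selected cells and -0.84 in ancestral cells, a change of 1.13 (0.54 to 1.71). Regions near ARNT2, NUFIP1 and TPTE had responses of -0.95, -1.01 and -1.86 in selected cells and of -0.84, -0.79 and -0.83 in ancestral cells. The interval of the change held 0 at ARNT2 and NUFIP1, while the change at TPTE was 1.02 (0.41 to 1.64). By the main rule CLIC5 and TPTE were thus past 2-fold in the change although both populations moved the same way. With summed pileups the change at TPTE was 0.62, below 2-fold.

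Outside undetermined regions, opposite responses beyond counting error were led by a region near SS18 (chromosome 18, 25974591 to 25975374). Its pileup was 186 in selected cells on stiff gel, 96 in selected cells on soft gel, 280 in ancestral cells on stiff gel and 344 in ancestral cells on soft gel. The response was 0.75 in selected cells and -0.77 in ancestral cells. Regions inside PTAFR, the platelet-activating factor receptor gene, and DOCK4, a Rac exchange factor gene, went the same way. The response at PTAFR was 0.72 in selected cells and -0.47 in ancestral cells, and at DOCK4 it was 0.69 in selected cells and -0.44 in ancestral cells. The region inside GRID2IP went the other way, with -0.79 in selected cells and 0.92 in ancestral cells.

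Genes with at least 5 regions were ranked by the median change of their regions, which was above 0 in 2213 of 4264 such genes (51.9%). NTM, which encodes neurotrimin, a neural cell adhesion molecule of the IgLON family, had the lowest median, -0.76 over 13 regions, of which 11 were below 0. A run of 7 neighbouring regions over 325 kb (chromosome 11, 131747970 to 132072829) was higher on stiff gel in selected cells, with responses between 0.45 and 1.49, while the ancestral responses ran between -0.41 and 0.46. The interval of the change lay below 0 in all 7, a run that was picked out after its values were seen. The last region of the run had pileups of 175 and 54 in selected cells on stiff and soft gel, and of 340 and 178 in ancestral cells on stiff and soft gel. The other regions within 5 Mb had a median change of -0.03.

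**Figure D4:**
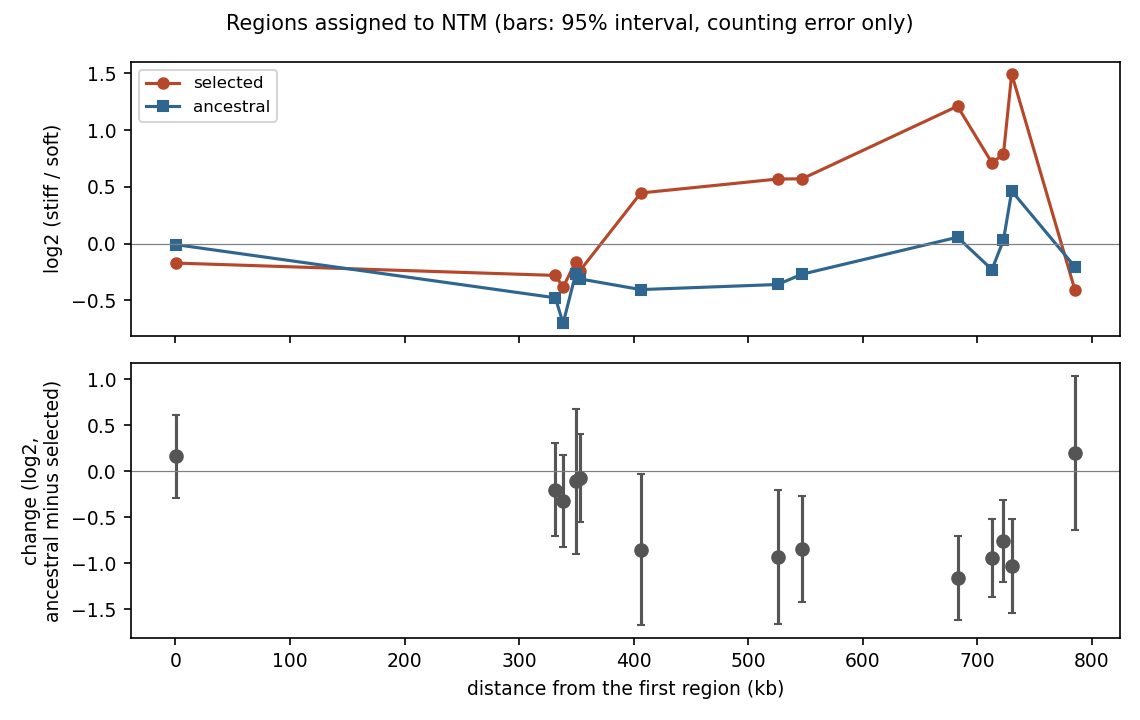
The 13 regions assigned to NTM by distance along the chromosome from the first (kb): log2 stiff/soft response in selected and ancestral cells (top) and change with its 95% counting interval (bottom). In 7 neighbouring regions the selected response lies between 0.45 and 1.49 and the change is below 0.

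Other genes with the lowest medians were XYLB (-0.67), SHISA9 (-0.56), DTNB (-0.55), PAK1 (-0.51), IL1RAP (-0.51) and GLIS2 (-0.50). PAK1 encodes a kinase that acts under Rac and Cdc42, and IL1RAP the accessory subunit of the interleukin-1 receptor. The change was below 0 in all 6 regions of IL1RAP, in all 5 of SHISA9, and in 5 of 6 regions of PAK1. The median response at PAK1 was 0.49 in selected cells and -0.04 in ancestral cells. Among regions at or above the median level, the median at DTNB was -0.34 and at XYLB -0.45, and with quantile scaling it was -0.32 at GLIS2.

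The highest gene medians were smaller and rested on weaker regions: CYCS (0.62), EBF4 (0.60), BLTP3A (0.56), GRIK5 (0.51), TAOK1 (0.51), ZBP1 (0.51), TMEM87B (0.50) and CEBPA (0.50). CYCS encodes cytochrome c. The change was above 0 in 6 of its 7 regions and was -0.17 (-0.28 to -0.06) at its promoter, where the pileup was 2078 and 1897 in selected cells on stiff and soft gel and 3975 and 3383 in ancestral cells on stiff and soft gel. TAOK1, a kinase upstream of the Hippo and MAP kinase cascades, had a change above 0 in 5 of 6 regions. Over the 8 genes the interval of the change lay off 0 in 15 of 44 regions, against 33 of 53 at the 8 genes with the lowest medians. Regions at ZBP1 had none. Among regions with −log10 q of at least 10 in each list the medians were 0.31 at CYCS, 0.07 at GRIK5, 0.25 at CEBPA, -0.06 at EBF4, -0.01 at ZBP1 and -0.24 at TMEM87B. At or above the median level CEBPA turned to -0.60, and the change at its promoter was -0.65 (-1.16 to -0.14). At BLTP3A the median was 0.29 with summed pileups, and at TAOK1 it was 0.34 within 10 kb of the gene.

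Genes of the stiffness-sensing pathways lay on both sides of 0 in each list described. The 25 lists held 500 symbols, of which 435 had an assigned region outside undetermined ones, and list medians of the gene medians ran between -0.13 and 0.26. Over all 15040 genes with a region the median was -0.01, with 7159 above 0 (47.6%). YAP/TAZ-TEAD targets had 16 of 24 members above 0 with a list median of 0.04, the Hippo cascade 9 of 20 with -0.01, focal adhesion genes 11 of 19 with 0.01, and integrins 9 of 18 with 0.01. Actin and SRF/MRTF targets had 10 of 20 with -0.00, AP-1 genes 5 of 9 with 0.01, extracellular matrix genes 14 of 26 with 0.02, and matrix proteases with lysyl oxidases 14 of 23 with 0.06.

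Single members differed. Among YAP/TAZ targets GADD45A, a growth arrest gene, was highest of those with at least 3 regions (0.26) and NUAK2, a kinase gene, lowest (-0.25). NUAK2 had a median response of 0.49 in selected cells and 0.06 in ancestral cells. Among adhesion genes BCAR1, the scaffold p130Cas, had 0.40 and PARVB -0.23, and among integrins ITGA11 had 0.34 and ITGAV -0.23. Among cytoskeletal genes FHL3 had 0.49 and FHL2 -0.31, both genes of LIM domain proteins. In the Hippo list TAOK1 had 0.51 and FAT1, an atypical cadherin gene, -0.27. Several of these rested on weak regions. Among regions with −log10 q of at least 10 in each list GADD45A was at -0.01 and PARVB at 0.01, and at or above the median level GADD45A was at -0.01, BCAR1 at 0.02, FHL3 at 0.13 and FAT1 at -0.07. With quantile scaling GADD45A was at 0.06.

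The matrix and nuclear lists spread as widely. LAMA3, a laminin chain gene, had -0.29 over 16 regions and FBN2, a fibrillin gene, 0.32 over 5. LMNA, the lamin A/C gene, had -0.24 and the nucleoporin gene NUP153 0.26. SNAI1, an inducer of epithelial-mesenchymal transition, had 0.44 over 7 regions and VIM, the vimentin gene, -0.11. IGF1R had 0.31 with 12 of 15 regions above 0, and the other regions within 5 Mb had a median of 0.15. HIF1A had 0.40 with 9 of 11 above 0, against 0.06 around it, and all 9 regions of IL6 were above 0, with the interval off 0 in 1. At or above the median level the median was 0.05 at HIF1A, 0.05 at SNAI1, 0.14 at NUP153, -0.12 at LMNA and -0.04 at VIM. HIF1A was at 0.18 with summed pileups, FBN2 at 0.17 with the same q limit and IGF1R at 0.15 with centring on 10 Mb windows.

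In the remaining lists, TGF-beta genes had 12 of 24 members above 0, epithelial genes 9 of 18, EMT genes 7 of 14, nuclear envelope genes 8 of 17, cell cycle genes 14 of 26, growth factor receptors 13 of 20, hypoxia genes 13 of 21, inflammatory genes 8 of 17 and interferon genes 7 of 17. Mechanosensitive channels had 8 of 15, caveolins and cavins 3 of 9, and sterol synthesis genes 7 of 18 with a list median of -0.09. Antioxidant genes had 4 of 15 with -0.11 and luminal genes 4 of 12 with -0.13, the lowest. Blood cell markers had 7 of 9 with 0.26, the highest, over 34 regions, and fibroblast and endothelial markers 5 of 11 with -0.03. The median of 0.26 is the value of SPI1, which rested on 3 weak regions with no interval of the change off 0. Their median pileups were 40 and 45 in selected cells on stiff and soft gel, and 49 and 37 in ancestral cells on the same gels.

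Regions of list members were past 2-fold no more often than regions near genes in general. Of all 59314 regions within 100 kb of a gene, 246 (0.415%) had a change of at least 1 and 159 (0.268%) of at most -1. Of the 2752 regions of list members, 11 had a change of at least 1, close to that share, and 3 of at most -1. Those of at least 1 were at FOXF2, ACTN1, BCAR1, ADAMTS12, TMEM63A, INSIG1, SMURF1, TXNRD1 and TAL1, with 2 at MLPH. TEAD1, a partner of YAP, and PFKFB3 and PFKFB4, regulators of glycolysis, had those of at most -1, with -1.31, -1.11 and -1.06.

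**Figure D5:**
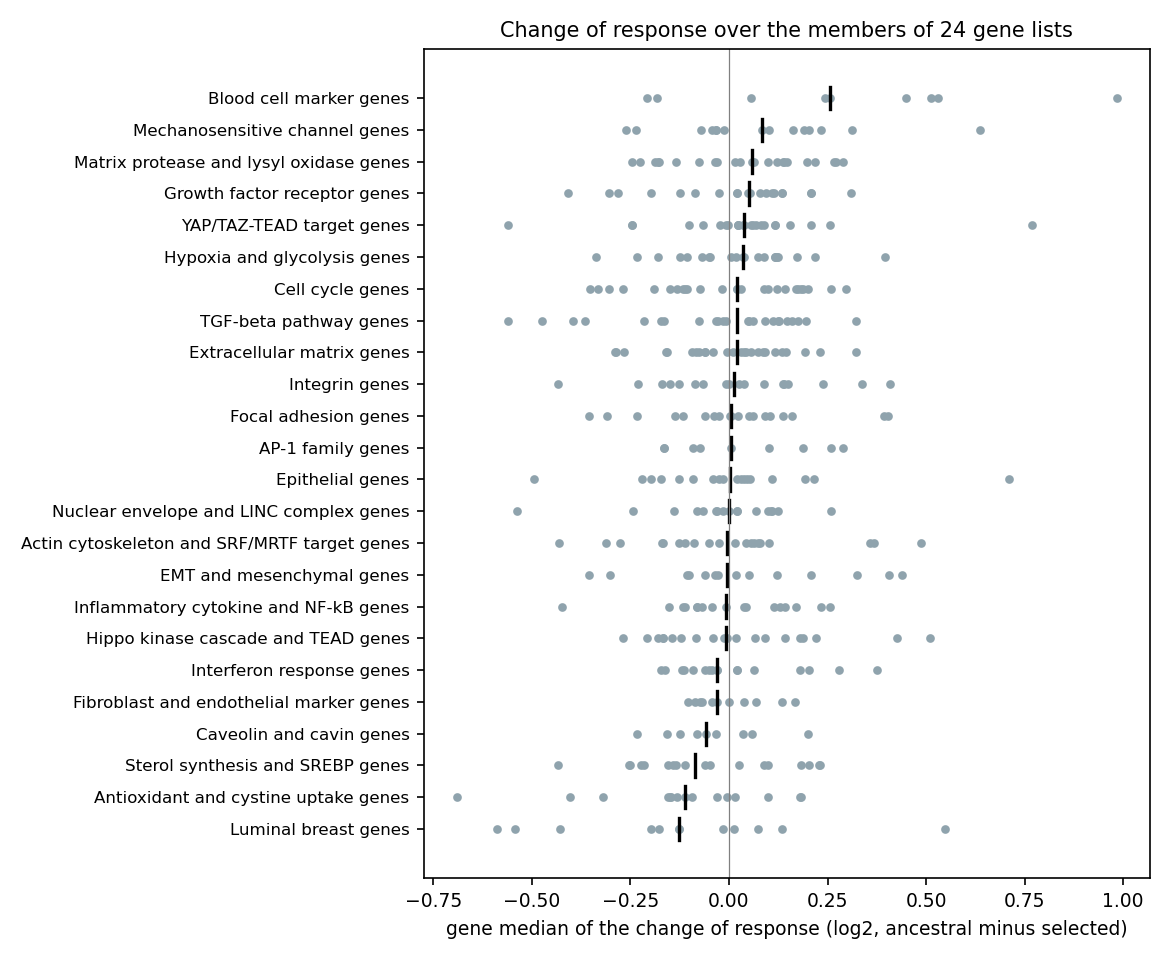
Median change of response (log2, ancestral minus selected) of each member of 24 of the 25 gene lists, outside undetermined regions; dots are genes and black marks list medians, with lists ordered by their median. List medians lie between -0.13 for luminal genes and 0.26 for blood cell markers, and members scatter to both sides of 0 in every list shown.

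Position along chromosomes went with little of the change. In 286 windows of 10 Mb, window medians of the change had an SD of 0.054, and windows held 1.88% of its variance. Between populations, the window medians of the responses had a Pearson r of 0.79 and a Spearman correlation of 0.67. Chromosome 15 had the highest median change, 0.11, with -0.10 in selected cells and 0.02 in ancestral cells. Chromosome 21 had the lowest, -0.13, with 0.10 in selected cells and -0.04 in ancestral cells, and chromosome 18 had -0.09. The highest windows were all on chromosome 15, at 50 to 60 Mb (0.14), 80 to 90 Mb (0.15), 90 to 100 Mb (0.16) and from 100 Mb to the end (0.17). The lowest were at 40 to 50 Mb of chromosome 9 (-0.19), 60 to 70 Mb of chromosome 18 (-0.19) and 30 to 40 and 20 to 30 Mb of chromosome 21 (-0.18 and -0.14). The change of neighbouring regions had an r of 0.05 for pairs at most 5 kb apart. Counting error, estimated at 65.8% of the variance of the change outside undetermined regions, lowers this r and the share held by windows. Neither was corrected for it.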

How the data were processed

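ATAC-seq was made from 16 MDA-MB-231 libraries in 4 groups of 4. Per the submitters' processing notes the build is GRCh38, and the tools include MACS2 2.2.7.1, Bowtie2 2.4.5, MultiQC 1.1, Trimmomatic 0.36 and FastQC 0.11.4. The authors deposited 1 peak list for each group, and its making from 4 libraries is not given in the sources used here. Per the file headers, each peak has a pileup signal, a fold enrichment (a ratio over background) and a −log10 q-value. The deposited pileup is not scaled to depth, and read totals were not used here; a single background per list (12.6 and 13.5 fragments for selected cells on stiff and soft gel, 20.2 and 16.3 for ancestral cells on stiff and soft gel) is the depth measure.

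Regions, scaling and the change of response were computed as the report's opening states. Intervals take the variance of a log2 ratio from the sum of 1/pileup (95%, normal approximation) and cover counting error only; with 1 list per group no p-value was computed. Regions were assigned to the nearest of 19122 protein-coding RefSeq genes within 100 kb, and promoters are RefSeq windows of 250 bases before to 50 after a start; 13385 of 21155 overlapped a region. Named were 12 regions per direction by the interval bound nearest 0 (8 at promoters), 8 genes per direction by median change, 4 regions per pattern of direction, list extremes with at least 3 regions, and the 4 highest and lowest windows with at least 30 regions. All 12 regions first named in each direction were undetermined, so naming, genes and promoters were repeated without undetermined regions, a choice made after the data were seen. Members, lists and naming rules were chosen with earlier results of these data known. Values of 1 named gene and 1 gene list are not reported here. Alternatives are in the closing section. Steps were tested on simulated data. Computation used scipy 1.17.1, numpy 2.4.6, pandas 2.3.3 and matplotlib 3.10.9 under python 3.11.15.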

Additional observations from a re-analysis of the deposited data

Results flagged for a closer look

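In 4 regions the response went one way in selected cells and the opposite way in ancestral cells beyond counting error. With 1 list per group the difference was not tested, and the regions were named by rank among the 1008 such regions outside undetermined ones. The change (ancestral minus selected, log2) was -1.52 near SS18 on chromosome 18, -1.2 inside PTAFR on chromosome 1, -1.13 inside DOCK4 on chromosome 7 and 1.71 inside GRID2IP on chromosome 7. Single groups could not be checked for outlying libraries, as each is given as 1 list.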

How the results depend on the processing

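No paired analysis was possible because each group has 1 peak list, and leaving out single replicates could not be done for the same reason. The alternatives were quantile scaling, background-subtracted pileups, summed pileups, regions with exactly 1 peak per list, −log10 q of at least 10, regions at or above the median level, merging within 500 bp, centring on 10 Mb windows, gene assignment within 10 kb and the exclusion of undetermined regions, which was chosen after seeing the data. Regions with a change of at least 1 numbered 323 by the main rule and 256 with quantile scaling, 1189 with background subtracted, 1206 with sums, 190 with exactly 1 peak, 135 with the q limit and 41 above the median level. Those of at most -1 numbered 245, and 478 with quantile scaling, 692 with background subtracted, 1098 with sums, 186 with exactly 1 peak, 158 with the q limit and 118 above the median level. The share with a shared direction was 63.9%, and 61.3% with quantile scaling, 63.0% with background subtracted, 61.6% with sums, 63.1% with exactly 1 peak, 65.5% above the median level and 62.1% with centring. The Spearman correlation of the responses was 0.41, and 0.35 with quantile scaling, 0.38 with background subtracted, 0.32 with sums, 0.40 with exactly 1 peak, 0.43 above the median level and 0.37 with centring. The SD of the change was 0.35, and 0.36 with quantile scaling, 0.42 with background subtracted, 0.44 with sums, 0.34 with exactly 1 peak, 0.33 with the q limit, 0.31 above the median level, 0.39 with merging, 0.35 with centring and 0.34 without undetermined regions.

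The promoters' median change of -0.09 was -0.014 with quantile scaling, -0.0757 with background subtracted, -0.0857 with sums, -0.112 with exactly 1 peak, -0.0817 with the q limit, -0.0571 above the median level and -0.0841 with centring. The excess of GGGCGG in the quintile of promoters with the lowest change, 22.95 percentage points over the highest quintile, was 18.4 with sums. Of the lists, 10 of 25 had more members above than below 0, and 6 above the median level. Of the 39 named regions 2 changed sign: the one inside MTCL2, to -0.21 with sums, and the one near ARNT2, from 0.10 to -0.05 with centring. Among list members whose median is given, GADD45A and PARVB changed sign with the q limit, and GADD45A above the median level. Among the 16 genes named by their median, 4 changed sign under some alternative, with CEBPA at -0.60 and TMEM87B at -0.41 above the median level. The causes were not tested. Weak regions rest on pileups from 26 upward, where counting error is widest.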

Other observations

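The undetermined regions held the most extreme values, and these are given without a reading. At the KDM4B promoter the pileup was 2790 in selected cells on stiff gel, 2012 in selected cells on soft gel, 59 in ancestral cells on stiff gel and 4187 in ancestral cells on soft gel, a change of -6.89. At CDK2AP2 it was 44 and 1509 in selected cells on stiff and soft gel, and 120 and 75 in ancestral cells on stiff and soft gel, a change of 5.51. Each of these regions touches a stretch with a skipped peak number in at least 1 list, and the values there were not read as a response.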
